A study of Drosophila melanogaster with 6 samples.

Results

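The cytosolic ribosomal protein genes of Drosophila melanogaster were taken by symbol, as every gene whose name begins with RpL or RpS followed by a number. The rule found 88 of the 17609 genes in the count table, 50 named for the large ribosomal subunit and 38 for the small one. Total RNA had been sequenced from eye-antennal imaginal discs, the larval epithelia that form the compound eye, antenna and head capsule, dissected in the third larval instar. In 3 libraries the larvae carried ey-Gal4 and UAS dTet, so that dTet, the fly member of the Tet dioxygenase family, was placed under the eyeless driver. The 3 control libraries came from ey-Gal4 crossed to W1118, with no UAS transgene in the labelled genotype, and both groups share the driver and were raised at 25 °C. The driver is active in the eye primordium, whereas whole discs with their antennal and head regions were extracted, and the sources used here do not give the number of larvae behind a library.

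Each cytosolic ribosome holds a single copy of nearly every ribosomal protein, made in step with the others, and the genes for them are among the most strongly transcribed of a growing cell. In flies, loss of a single copy of many of these genes gives the Minute phenotype of slow growth and thin bristles, and Minute cells are removed from imaginal discs when they lie next to normal ones. Their transcripts are short, and several genes exist as a widely expressed copy with a paralog known mainly from the germ line.

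Libraries held 16395675 to 20242356 counted read pairs. Summed markers of the eye field stood at 1269 to 1508 CPM (counts scaled per 1000000 read pairs) in the controls and at 329 to 340 CPM in dTet discs, and 6 of 6 were lower in dTet. The sum of 5 photoreceptor and neuron markers was 936 to 1017 CPM in controls and 66.2 to 71.6 CPM in dTet, and all 5 were lower. Antennal and head markers summed to 744 to 752 CPM in controls and to 1145 to 1192 CPM in dTet, with 5 of 6 higher and 1, dan, lower. These marker counts are calls at an edgeR adjusted p under 0.05, by which 7.64% of all tested genes were lower and 3.77% higher. Tet was counted at 316, 348 and 385 CPM in the controls and at 364.5, 457 and 416 CPM in dTet, a difference that missed the threshold (edgeR adjusted p = 0.244), although counts per gene do not separate the transgene from the endogenous copy. One library stood apart from its group in the ribosomal protein genes, control 1, and the counts, list medians and calls that turn on it are also given without it.

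Of the 88 genes, 82 had enough reads to be tested, 47 of the large and 35 of the small subunit, among 9417 genes tested in all. Expressed per length, as TPM (transcripts per 1000000), 72 of the 88 stood at 1000 TPM or more in the mean of the controls, out of 126 such genes in the whole table. They made up 33 of the 50 and 64 of the 100 most abundant transcripts. The median over the tested genes was 3878 TPM. Of the 88 there was 1 gene over 10000 TPM, 71 between 1000 and 10000 TPM, 7 between 100 and 1000 TPM and 9 under 10 TPM.

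The highest level was that of RpL41, which encodes the smallest protein of the ribosome, at 31150 ± 7619 TPM (mean ± SD, n = 3 controls). RpS27A, whose protein is made as a fusion with ubiquitin, followed at 9311 ± 1714 TPM. Next came RpL31, a protein at the exit of the nascent peptide tunnel, at 8751 ± 3603 TPM. RpL23, on the face of the large subunit towards the small one, stood at 7973 ± 2025 TPM. RpS23, a protein of the decoding centre, stood at 7251 ± 1894 TPM. Apart from RpL41, neighbours in this order differed by less than their SD over the controls. The order of the 82 tested genes by TPM was similar in any pair of libraries, with Spearman's rho across these genes, which are not independent replicates, between 0.889 and 0.995.

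At the low end, RpL37b, RpS28a, RpS28-like and RpL7-like had no read pair in any library, which over the 112290018 pairs of all 6 libraries allows up to 0.0267 CPM. RpL7-like shares 98.8% of its exon length with CG34164 on the same strand, and by the counting program's default a pair that overlaps both genes is not counted for either. RpL10Aa had 4 pairs, all in dTet 3, and RpS10a had 7 pairs, 5 in dTet 1 and 2 in control 2. These 6 genes were not tested. The lowest tested genes were RpL22-like at 2.36 ± 1.38 TPM, RpS5b at 4.88 ± 1.37 TPM and RpS19b at 7.34 ± 0.988 TPM in controls, all paralogs known from germ line tissue.

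The 3 control libraries differed among themselves in how much of their reads came from ribosomal protein genes. The 88 genes took 13.6% of the counted pairs in control 1, 22.4% in control 2 and 21.0% in control 3. In the dTet libraries they took 15.2%, 14.8% and 14.1%. Control 1 was thus the lowest of the 6 libraries and the other controls were the highest, so that the groups overlapped in this share, at 19.0 ± 4.76% against 14.7 ± 0.571% (mean ± SD, n = 3 each). Both subunits followed this pattern: the large subunit genes took 7.50%, 12.5% and 11.5% in the controls and 7.97% to 8.55% in dTet, and the small subunit genes 6.06%, 9.93% and 9.54% in the controls and 6.12% to 6.67% in dTet.

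**Figure D1:**
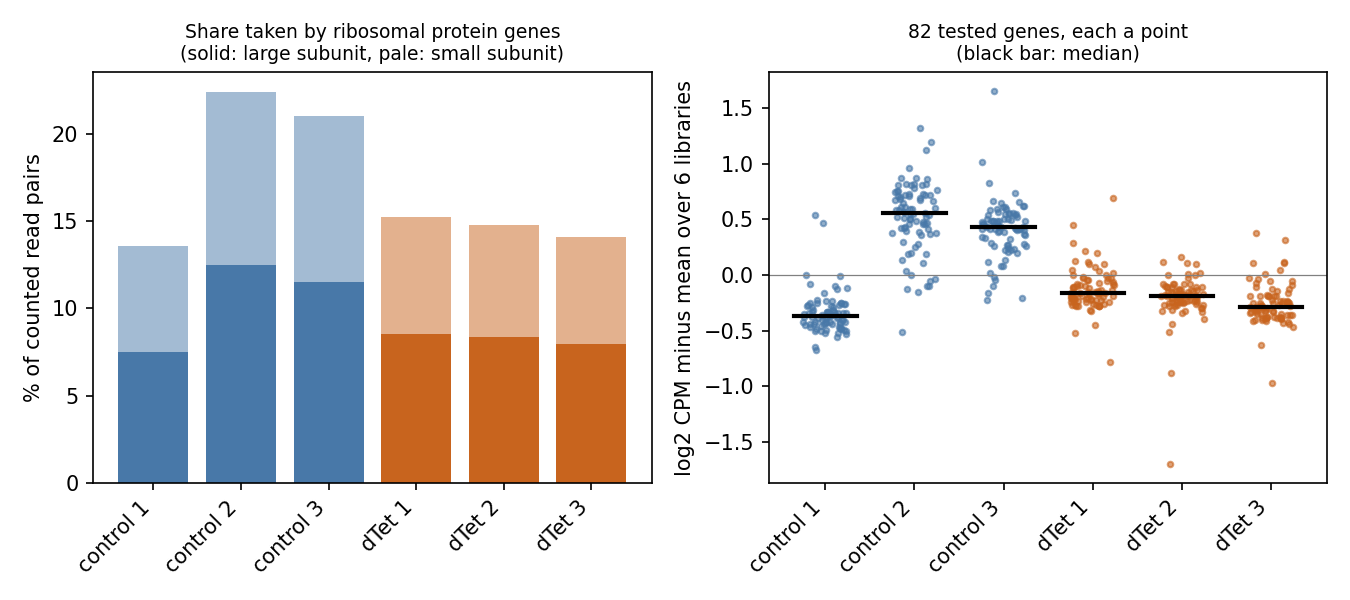
Left, share of counted read pairs (%) taken by the 88 ribosomal protein genes in each library, with large subunit genes as the solid and small subunit genes as the pale part of a bar. Right, each of the 82 tested genes as its log2 CPM minus its mean over the 6 libraries, with the median as a black bar: control 1 lies at -0.37, control 2 at 0.56, control 3 at 0.43 and the dTet libraries between -0.29 and -0.16.

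Gene by gene, control 2 stood at a median of 1.92 times the CPM of control 1 over the 82 tested genes (range 0.478 to 3.48), where CPM is scaled by library size and composition (TMM). Control 3 stood at a median of 1.72 times control 1 (range 0.612 to 2.98). Over all 9417 tested genes the same medians were 0.968 and 0.979. Both libraries exceeded control 1 by more than 1.5 times in 63 of the 82 genes, against 9.51% of all tested genes. In 77 genes both stood above control 1, in 2 both stood below it, and in 3 they lay on either side.

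The dTet libraries lay close to control 1 in these genes. Their mean was 1.13 times control 1 in the median gene (range 0.333 to 1.85), and the median absolute log2 difference over the 82 genes was 0.11 to 0.22 between control 1 and a dTet library. Between control 1 and the other controls it was 0.94 and 0.79, between those other controls 0.15, and between dTet libraries 0.05 to 0.12. In 64 genes control 1 was below all 3 dTet libraries, against 29.9% of all tested genes. In 16 it lay within their range (36.7% of all) and in 2 above them (33.3% of all). Controls 2 and 3 both lay above all dTet libraries in 71 genes, against 31.1% of all.

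The spread of these genes over the libraries was wider in controls than in dTet. For the 79 genes with a control mean of 10 CPM or more, the coefficient of variation (SD over mean) had a median of 31.6% in controls, with a range of 1.01% to 52.7%. In dTet discs it had a median of 5.45%, with a range of 0.715% to 10.9%. For the 6737 genes of the table at that level the medians were 13.4% and 8.17%. The coefficient was larger in controls for 77 of the 79 genes, and for 69.1% of those 6737. Without control 1 the control median was 7.24%, from the 2 remaining libraries. The spread depended on the scale: on the TPM scale, in which each library is set to a common sum of values per length, the control median was 17.6% for the ribosomal protein genes and 22.7% for the 6737 genes.

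RpL31 had the widest spread, with 1657 CPM in control 1, 5759 in control 2 and 4697 in control 3. RpS27, a zinc finger protein of the small subunit, ran from 911 CPM in control 1 to 3076 and 2709 CPM in the others. In both genes control 1 was far below the other controls and near the dTet libraries, which stood at 1936 to 2004 CPM for RpL31 and at 865 to 941 CPM for RpS27. RpL35A, of the large subunit, stood at 917, 2489 and 2135 CPM in controls 1 to 3 and had a coefficient of variation of 44.6%. RpL32, which is widely used in flies as a reference transcript for quantitative PCR, stood at 1567, 4150 and 3557 CPM in the controls and at 1861, 1788 and 1729 CPM in dTet. At the other extreme was RpL4, a protein that lines the peptide tunnel, with 1695, 1690 and 1722 CPM in the controls, a coefficient of variation of 1.01%. On the TPM scale RpL4 stood at 2088, 1473 and 1626 and had a coefficient of 18.5%.

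The transcripts of ribosomal protein genes were short, and the gap between control libraries went with length. The exon length of the 88 genes ran from 288 to 3835 bases with a median of 901, and 48 of the 82 tested genes were under 1000 bases, against 17.6% of all tested genes, whose median was 2094 bases. From the canonical Ensembl transcript of each of 81 tested genes, the median coding sequence was 468 bases, the 5′ untranslated region 84 bases and the 3′ untranslated region 165 bases, against 1446, 165 and 278 bases over 8511 other tested genes. Across the 82 genes the ratio of controls 2 and 3 to control 1 fell with length (Spearman's rho = -0.52, Pearson's r of the log2 values = -0.45). Across 6658 other genes at 10 CPM or more in controls, which come from the same libraries, Spearman's rho was -0.54. Within the ribosomal protein genes the length of the coding sequence had a rho of -0.49 with the ratio, the 3′ untranslated region -0.21 and the 5′ untranslated region 0.001. The ratio of the dTet mean to control 1 had a rho of -0.02 with exon length.

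Set beside other genes of like length, the ribosomal protein genes had the higher ratio of controls 2 and 3 to control 1 in all 7 length classes, small RNA genes left out, although the classes from 1500 bases up hold 4 of them in all. From 600 to under 800 bases its median was 2.05 in 21 ribosomal protein genes and 1.69 in 281 others. From 1000 to under 1500 bases it was 1.69 in 29 ribosomal protein genes and 1.22 in 998 others. Under 600 bases the medians were closer, 1.86 in 9 and 1.80 in 158. Other genes of under 1000 bases took 6.22%, 9.28% and 8.33% of the pairs in controls 1 to 3 and 6.34% to 6.62% in dTet. Genes over 3000 bases took 38.1%, 28.2% and 30.2% in the controls and 34.9% to 36.9% in dTet. Length, and with it any property that goes with length in these libraries, moved with the level of ribosomal protein genes, and the comparison of the groups is also given with an offset for it.

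**Figure D2:**
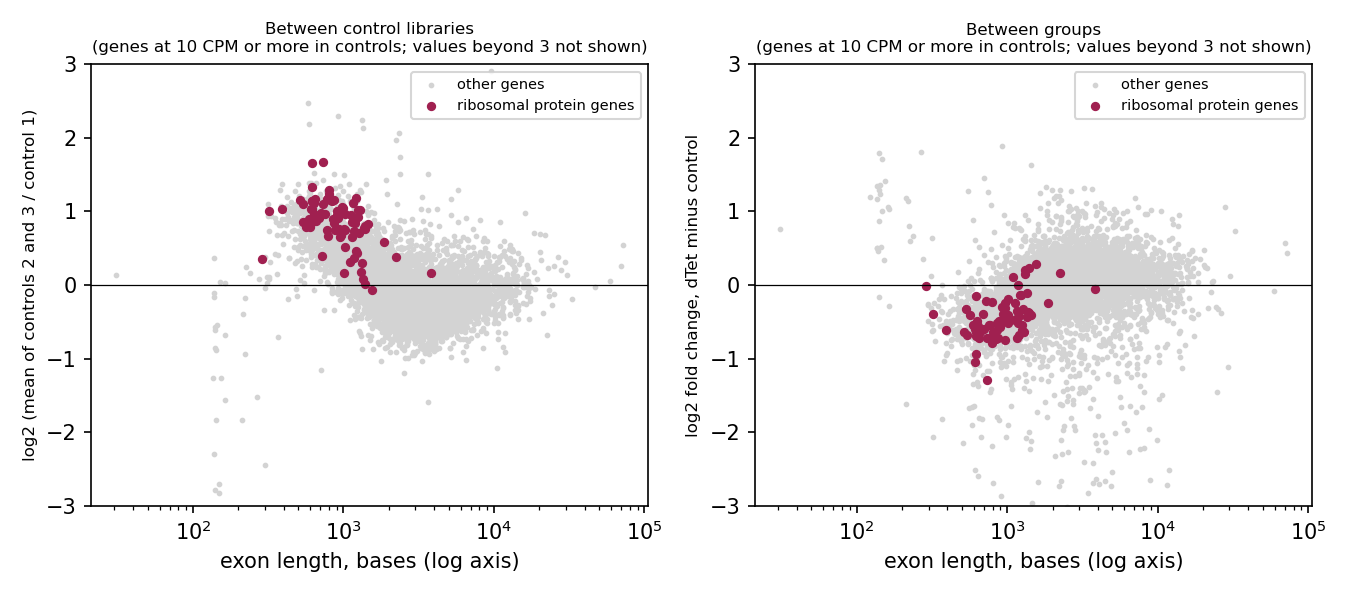
Exon length in bases (log axis) against the log2 ratio of the mean of controls 2 and 3 to control 1 (left) and the log2 fold change of dTet over control (right), for 79 ribosomal protein genes (dark red) and 6658 others (grey) at 10 CPM or more in controls. Short genes lie high on the left and low on the right, and the ribosomal protein genes lie among or above the short genes on the left.

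Markers of other cell types in the same libraries are given here for the control gap. All 5 hemocyte markers were higher in controls 2 and 3 than in control 1, with sums of 144, 190 and 208 CPM in the controls and 142 to 160 CPM in dTet. Hml and Pxn made up most of these sums and, with He, were lower on average in dTet. NimC1 went the other way, at 3.13 to 4.45 CPM in controls and 4.48 to 6.23 CPM in dTet, as did srp on average (log2 fold change 0.42). Of the 5, 0 passed edgeR's test, and Hml and Pxn were called lower without control 1. Of all tested genes, 18.8% were called lower and 14.5% higher without control 1, and 7.64% and 3.77% with all libraries. Fat body markers summed to 854, 304 and 1477 CPM in the controls and to 270 to 710 CPM in dTet, in no common order with the ribosomal protein genes. Of these 4, 0 passed with all libraries, and Fbp2 was called lower without control 1 (edgeR adjusted p = 0.033). Muscle markers summed to 161, 180 and 178 CPM in controls and to 235 to 377 CPM in dTet. Of these 5, 1, Mhc, was called higher with all libraries (edgeR adjusted p = 0.0115). Without control 1, Mhc and Act57B were called higher. The part of these cells in the ribosomal protein values was not tested.

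The comparison of the groups asked whether ribosomal protein transcripts differed in discs that express dTet under ey-Gal4. Most of them were lower on average in dTet, but little of this passed the test over the spread of the controls. The log2 fold change (dTet over control) had a median of -0.49 over the 82 tested genes, with quartiles of -0.63 and -0.25 and a range of -2.33 to 0.42. It was -0.47 over the 47 large subunit genes and -0.52 over the 35 small subunit genes, against -0.02 over all tested genes. It was below 0 in 73 of the 82, against 4883 of all 9417. In bulk RNA, fewer cells of a type and less RNA per cell cannot be told apart.

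By edgeR's quasi-likelihood test with Benjamini-Hochberg adjustment over all 9417 genes, 1 of the 82 genes was lower in dTet at an adjusted p under 0.05, RpS5b, and 0 were higher. Of all tested genes, 7.64% were called lower and 3.77% higher. At an unadjusted p under 0.05, 39 ribosomal protein genes were lower and 1 higher, against 16.8% and 12% of all genes. DESeq2 called 27 lower and 0 higher, with 11.4% and 6.99% of all genes called in these directions. With no filter on low counts edgeR called 16 of 84 lower and 0 higher, against 7.28% and 3.07% of genes. The libraries of the groups did not overlap in 4 of the 82 genes. RpS5b and RpL15 were below every control, against 17.6% of all tested genes, and RpS10b and RpL4 were above, against 15.1%. The other 78 overlapped.

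Without control 1, the test called 69 ribosomal protein genes lower and 1 higher, where 18.8% of 9693 genes were called lower and 14.5% higher. The 69 were 37 large and 32 small subunit genes, with log2 fold changes from -0.29 to -2.62, and the median over the 82 was -0.74. With control 1 as the lone control, and its variation assumed to be like that of dTet libraries, 0 were lower, also at an unadjusted p under 0.05, and 5 were higher (RpL3, RpL7A, RpL11, RpL23A and RpL41), against 4.94% and 2.83% of genes, and the median turned to 0.17. The direction of the typical ribosomal protein gene in dTet thus depended on which control libraries it was set against. With each library's trend of counts on exon length taken out by an offset fitted to the other genes, 2 were lower (RpS5b and RpS27) and 4 higher (RpL4, RpL7A, RpL22 and RpS10b), against 9.82% and 5.73% of genes. The median was then -0.20, with 64 of 82 genes below 0. The fits with control 1 alone and with the length offset were chosen after the differences between controls had been seen. Each library was also left out in turn, and 0 ribosomal protein genes were called when any library but control 1 was left out. Control 1 was singled out because its values in these same genes stood apart. The calls without control 1, here and below, take no account of that choice and are no separate support for a fall.

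**Figure D3:**
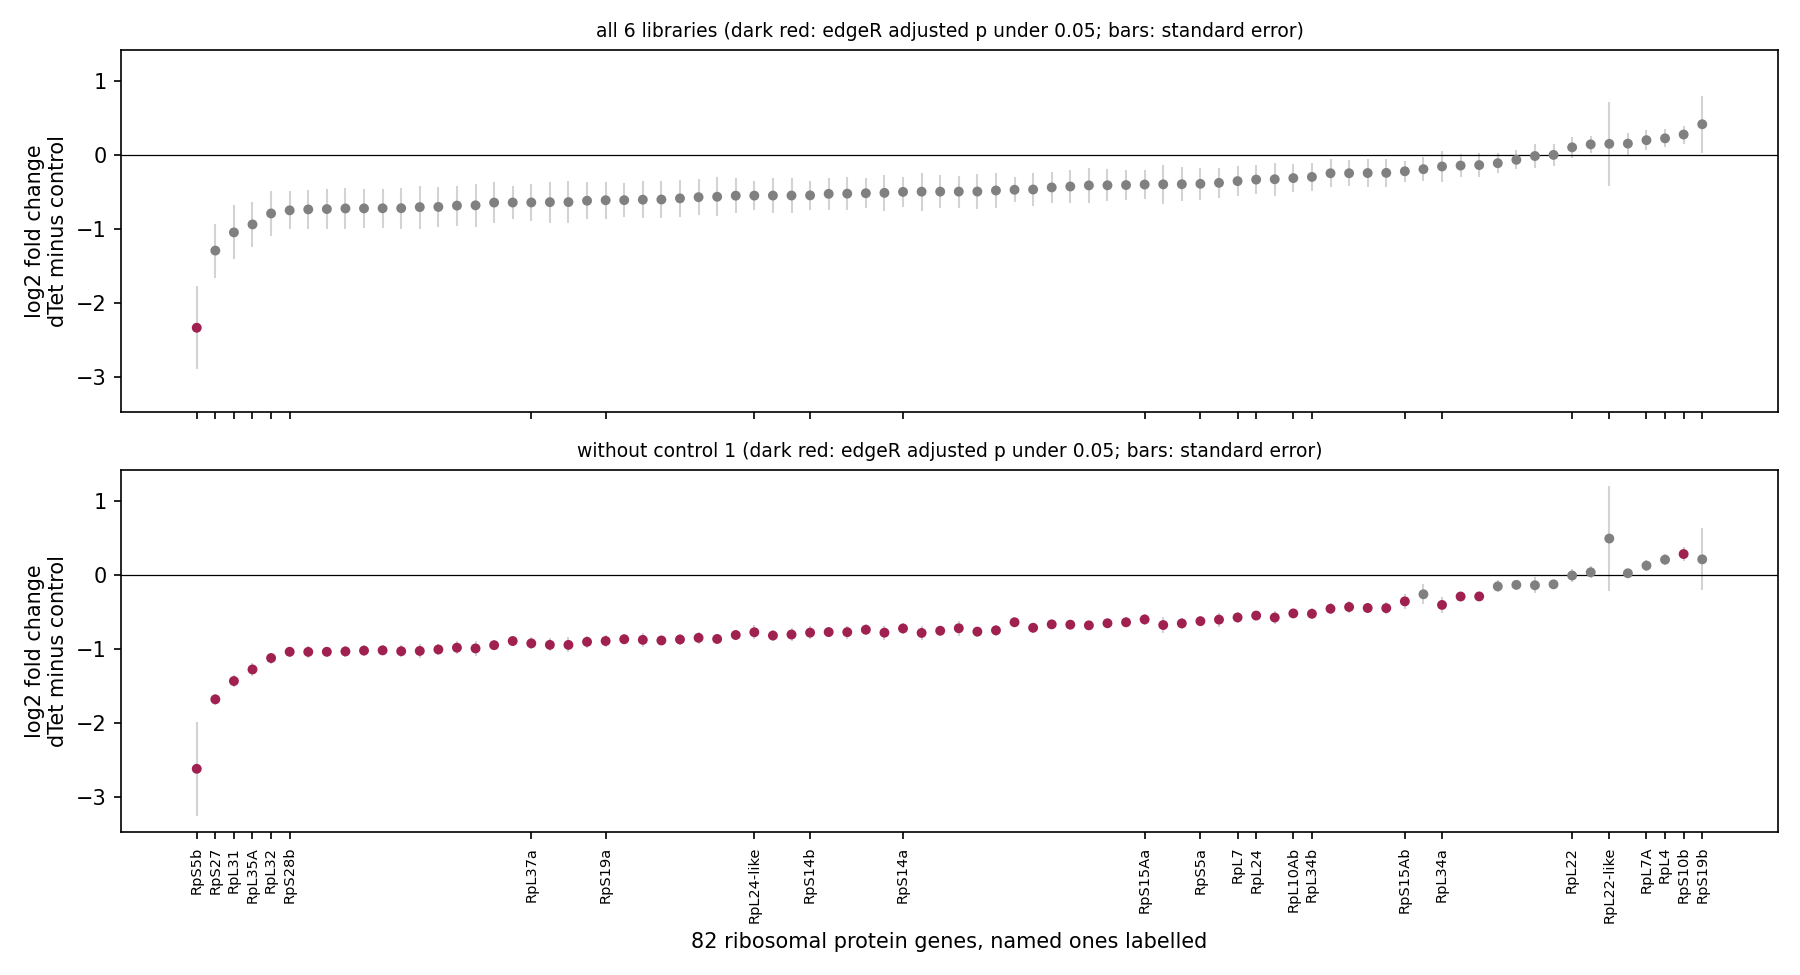
Log2 fold change of dTet over control with its standard error for each of the 82 tested ribosomal protein genes, ordered by the value from all 6 libraries (top) and in the same order without control 1 (bottom), with names for paralogs and for the widest spreads, rises and falls; dark red marks an edgeR adjusted p under 0.05. RpS5b alone is marked at the top, at -2.33, and 69 lower genes and RpS10b are marked at the bottom.

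RpS5b, the gene that passed, lies on 3R at 14900432 to 14901563 (dm6) and encodes a paralog of RpS5a known from the female germ line. It was counted at 2.01, 3.62 and 4.57 CPM in the controls, from 43, 65 and 80 read pairs. In dTet it was counted at 0.837, 0.437 and 0.733 CPM, from 14, 8 and 15 pairs. All dTet libraries were below all controls, and both groups were low. RpS5b met the filter on low counts only through the controls, the group in which it was higher, since dTet 2 lay under the filter's level. RpS5b fell 5.04-fold (log2 fold change -2.33, SE 0.56, 95% interval -3.60 to -1.06, edgeR adjusted p = 0.0282). It passed in 8 of the 15 alternatives, with an adjusted p of 0.000939 to 0.155 and a log2 fold change between -2.62 and -2.07. Among the alternatives in which it missed the threshold, its adjusted p was 0.108 without control 2, 0.155 without control 3, 0.0553 to 0.0768 without 1 of the dTet libraries and 0.0597 with limma-voom. Of 8 germ line and gonad markers, aly was at 0 in every library and 5 others (vas, nos, bam, dj and Mst87F) were under 1 CPM in each and not tested. The other two went upward on average: aub stood at 0.171 to 0.78 CPM in controls and at 0.492 to 1.56 CPM in dTet (edgeR adjusted p = 0.338), and ovo, which makes up most of the list's sum, was called higher, at 102 to 118 CPM and 136.5 to 173 CPM (log2 fold change 0.50, edgeR adjusted p = 0.028). The sum was 103 to 120 CPM in controls and 139 to 175 CPM in dTet, and it follows ovo. Since the other markers stood far lower, neither ovo nor the sum is read here as a measure of germ line cells. The part of germ line cells in the RpS5b value was not tested.

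The next largest falls did not pass. RpS27 stood at 911, 3076 and 2709 CPM in controls and at 935, 941 and 865 CPM in dTet, a log2 fold change of -1.29 (SE 0.37, edgeR adjusted p = 0.0528). Control 1 lay within the dTet range, and control 3 was 2.98 times as high as control 1, the widest such gap of the 82 genes. Without control 1 its log2 fold change was -1.68 (edgeR adjusted p = 4.41e-07), and with the length offset it was -0.87 (edgeR adjusted p = 0.0347). RpL31 stood at 1936, 2004 and 1939 CPM in dTet against 1657 CPM in control 1 and 4697 and 5759 CPM in the others, a log2 fold change of -1.04 (SE 0.37, edgeR adjusted p = 0.101). Here control 1 was below every dTet library, and without it RpL31 was called lower (log2 fold change -1.43, edgeR adjusted p = 1.85e-06). RpL35A had a log2 fold change of -0.93 (SE 0.31, edgeR adjusted p = 0.0828), with 1027, 944 and 928 CPM in dTet against 917 CPM in control 1 and 2489 and 2135 CPM in the others. Without control 1 RpL35A was called lower, at -1.28 (edgeR adjusted p = 5.08e-06).

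RpL15, a protein of the large subunit core, differed from these in that control 1 also stood above dTet. It was counted at 2492, 3566 and 3589 CPM in the controls and at 2386, 2358 and 2241 CPM in dTet. The gap between control 1 and the highest dTet library was small, and RpL15 did not pass (log2 fold change -0.47, SE 0.17, edgeR adjusted p = 0.105). Without control 1 it was called lower, at -0.64 (edgeR adjusted p = 4.92e-05). RpL41, the most abundant per length, had 4388, 10200 and 7486 CPM in the controls and 5686, 5905 and 5227 CPM in dTet. Its log2 fold change was -0.39 (SE 0.27), and it did not pass (edgeR adjusted p = 0.361). Without control 1 RpL41 was called lower, at a log2 fold change of -0.68 (edgeR adjusted p = 0.00125), and with control 1 as the lone control it was called higher, at 0.35 (edgeR adjusted p = 0.00728).

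A few genes were higher on average in dTet, none of them past the threshold with all 6 libraries. RpS10b, on the head of the small subunit near the entry of the messenger, stood at 768, 767 and 704 CPM in controls and at 1005, 825.5 and 892 CPM in dTet, a log2 fold change of 0.28 (SE 0.12, edgeR adjusted p = 0.166). Its dTet libraries were all above its controls, and it was the 1 gene called higher without control 1 (log2 fold change 0.29, edgeR adjusted p = 0.0433). RpL4 stood at 2136, 1862 and 1992 CPM in dTet, all above the controls, which lay between 1690 and 1722 CPM, a log2 fold change of 0.23 (SE 0.12, edgeR adjusted p = 0.25). RpL7A stood at 1705, 1856 and 2018 CPM in the controls and at 2285, 1995 and 2151 CPM in dTet, with overlap (log2 fold change 0.21, edgeR adjusted p = 0.333). RpS19b stood at 2.57, 4.63 and 3.48 CPM in the controls and at 5.50, 3.55 and 5.23 CPM in dTet, a log2 fold change of 0.42 (SE 0.38, edgeR adjusted p = 0.499).

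Not every ribosomal protein gene was lower in control 1. RpS10b and RpL4 were level across the controls, and RpS3A, the only member on chromosome 4, stood at 3686, 3551 and 4273 CPM in controls and at 3697, 3386 and 3610 CPM in dTet. A separate matter is which genes were not called lower in dTet without control 1. Besides RpS10b, these were 12: RpL3, RpL4, RpL5, RpL7A, RpL8, RpL22, RpL22-like, RpL23A, RpL38, RpL39, RpS3A and RpS19b. Of them, RpL3, RpL5, RpL7A, RpL8, RpL22, RpL23A, RpL39 and RpS19b were still lower in control 1 than in both other controls. The 12 include RpL3, at the peptidyl transferase centre, RpL5, which binds the small ribosomal RNA of the large subunit, and RpL22 and RpL23A, which in flies carry an extension resembling linker histone. The 69 called lower had a median exon length of 865 bases, and the other 13 a median of 1315 bases. RpL39 was an exception to this difference, since at 288 bases it is the shortest member and stood at 923, 1293 and 1076 CPM in controls and at 1070, 1218 and 982 CPM in dTet.

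Of 12 sets of paralogs, holding 25 genes, most had a dominant copy. Shares are of the set's TPM, and each was compared between groups by an exact permutation test over the 6 libraries, two-sided, in which 3 against 3 cannot go below 0.1. Pairs that map to more than one place are left out by the counting program's default, so the counts of near-identical copies are uncertain. RpS5b made up 0.096%, 0.0981% and 0.128% of its set in controls and 0.0338%, 0.0176% and 0.0333% in dTet. RpS19b, beside RpS19a, made up 0.487%, 0.404% and 0.355% in controls and 0.889%, 0.64% and 0.909% in dTet. RpL24-like, whose protein acts in large subunit assembly rather than in the mature ribosome, made up 17.6%, 18.1% and 17.8% of the sum with RpL24 in controls and 15.8%, 16.6% and 14.8% in dTet. In these 3 sets the groups did not overlap, and each had the smallest p the design allows (exact permutation p = 0.1, adjusted over 9 sets 0.3).

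The other sets overlapped. RpS14a and RpS14b lie side by side on the X chromosome, at 7933742 to 7934677 and 7934898 to 7935792, on the same strand. RpS14b made up 24.3 ± 1.23% of the pair in controls and 23.7 ± 0.369% in dTet (mean ± SD, n = 3, exact permutation p = 0.7). RpL34a made up 34.6 ± 1.04% and 37.0 ± 2.37% beside RpL34b (exact permutation p = 0.3). It was the closest to an even split of any set. RpS15Ab made up 8.19 ± 0.782% and 9.05 ± 0.822% beside RpS15Aa (exact permutation p = 0.2), and RpL22-like 0.214 ± 0.112% and 0.213 ± 0.102% beside RpL22 (exact permutation p = 1). RpL10Aa and RpS10a held at most 0.0766% in any library, with an exact permutation p of 1 each. RpL37b, RpL7-like, RpS28a and RpS28-like were at 0 beside RpL37a, RpL7 and RpS28b. In the RpL24 set the share held within 17.6% to 18.1% over the controls while both levels were lowest in control 1: RpL24 stood at 2114, 2451 and 2659 TPM and RpL24-like at 450, 543 and 574 TPM in controls 1 to 3.

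**Figure D4:**
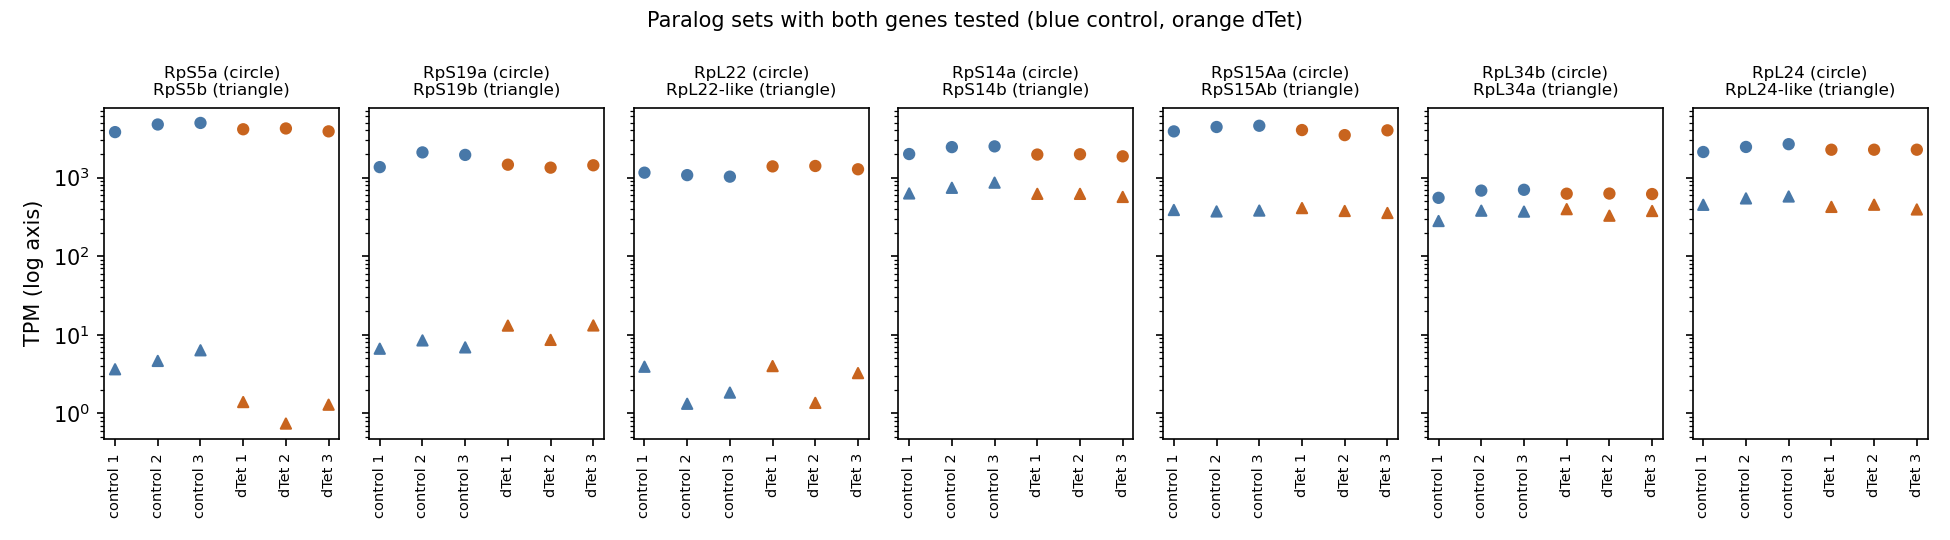
TPM (log axis) of both genes of the 7 paralog sets in which both were tested, in each library, with controls in blue and dTet in orange. RpS5b lies between 3.64 and 6.35 TPM in controls and between 0.742 and 1.39 TPM in dTet, while RpS5a stays between 3786 and 4954 TPM.

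Many of these genes are hosts of small nucleolar RNA (snoRNA) genes, the guides of ribosomal RNA modification. By the coordinates of the count table, 29 of the members hold 75 snoRNA genes within their bounds on the same strand, and 14 of these lie in RpS5a. The median log2 fold change was -0.42 over the 29 hosts, whose median exon length was 1018 bases, and -0.54 over the 53 other tested members, whose median length was 857 bases. Members lay on every arm, 18 on 2L, 19 on 2R, 13 on 3L, 23 on 3R, 14 on X and 1 on 4. The median log2 fold change of tested members was -0.55 on 2L, -0.55 on 2R, -0.37 on 3L, -0.49 on 3R and -0.45 on X. Of the 88 genes, 5 shared more than 10% of their exon length with another gene on the same strand, so that part of their reads could have been left uncounted. They include RpL22 (34.3%, with lncRNA:CR42491), RpL23A (31.9%, with Uhg7) and RpS6 (16.9%).

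Ribosomal protein genes and relatives that the symbol rule misses were tested alongside. For this and the following lists, 7.64% of all tested genes were called lower and 3.77% higher by edgeR. The shares lower and higher were 16.8% and 12% at an unadjusted p under 0.05 and 11.4% and 6.99% by DESeq2. They were 18.8% and 14.5% by edgeR without control 1. Of 6, comprising the acidic stalk, sta and Rack1, 0 passed edgeR's test in either direction (at an unadjusted p under 0.05, 1 was higher and 0 lower, and DESeq2 called 0). Their median log2 fold change was -0.22, and 5 were higher in controls 2 and 3 than in control 1. Without control 1, 5 were called lower and 1, RpLP0-like, higher, with a median of -0.42. RpLP1, a stalk protein that recruits elongation factors, stood at 2275, 4696 and 3814 CPM in controls and at 2711, 2648 and 2600 CPM in dTet (edgeR adjusted p = 0.253). RpLP2, its partner, stood at 1566, 3086 and 2409 CPM in controls and at 1773, 1881 and 1547 CPM in dTet (edgeR adjusted p = 0.233). RpLP0-like, a factor of large subunit assembly, stood at 79.1, 70.9 and 66.5 CPM in controls, highest in control 1, and at 84.6 to 88 CPM in dTet (edgeR adjusted p = 0.14).

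Of 7 elongation factors, 1 fell and 0 rose by edgeR (2 and 1 at an unadjusted p under 0.05, and 1 and 1 by DESeq2). The median log2 fold change was 0.02. Without control 1, 3 were called lower and 2 higher, with a median of -0.08. The one that fell with all 6 libraries was eEF1alpha2, a variant of the factor that brings aminoacyl-tRNA to the ribosome, known in other animals from neurons and muscle. It stood at 91.6, 68.4 and 58.7 CPM in controls and at 2.03, 2.95 and 4.25 CPM in dTet, a log2 fold change of -4.55 (SE 0.28, edgeR adjusted p = 1.07e-05). Its groups were far apart, and control 1 was its highest library. The common form, eEF1alpha1, stood at 13790 to 15820 CPM in controls and at 15240 to 15530 CPM in dTet (edgeR adjusted p = 0.921). eEF5 stood at 2644, 4538 and 4327 CPM in controls and at 2796, 2823 and 2764 CPM in dTet (edgeR adjusted p = 0.171), and eEF1gamma at 1347 to 1385 CPM and 1658 to 1791 CPM (edgeR adjusted p = 0.104). Both were called without control 1, eEF5 lower at -0.68 (edgeR adjusted p = 2.12e-05) and eEF1gamma higher at 0.31 (edgeR adjusted p = 0.00643).

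Genes of ribosome biogenesis, the nucleolar factors that build the subunits, had a median above 0. Of 32, 2 rose and 0 fell by edgeR (16 and 1 at an unadjusted p under 0.05, and 10 and 0 by DESeq2). Of all tested genes 3.77% rose by edgeR, 12% at an unadjusted p under 0.05 and 6.99% by DESeq2. The list's median log2 fold change was 0.30. In 10 of the 32 both control 2 and control 3 were above control 1, and the median ratio to control 1 was 0.83 for each. Their median exon length was 1802 bases. Without control 1, 17 were called higher and 4 lower, with a median of 0.31. The helicase gene pit stood at 114, 88.8 and 82.4 CPM in controls and at 155, 129 and 147 CPM in dTet, a log2 fold change of 0.59 (SE 0.14, edgeR adjusted p = 0.0282). CG4038 stood at 6.67, 4.35 and 4.34 CPM in controls and at 9.74, 9.07 and 13.3 CPM in dTet, a log2 fold change of 1.06 (SE 0.29, edgeR adjusted p = 0.0473). In both genes all dTet libraries exceeded all controls, as in 15.1% of all tested genes, and Fib shared this. Fib, which encodes the nucleolar methyltransferase fibrillarin, stood at 64.4, 76.7 and 82.7 CPM in controls and at 105, 91.7 and 97.5 CPM in dTet and did not pass (edgeR adjusted p = 0.0712). Fib was called higher without control 1, at 0.28 (edgeR adjusted p = 0.0447).

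**Figure D5:**
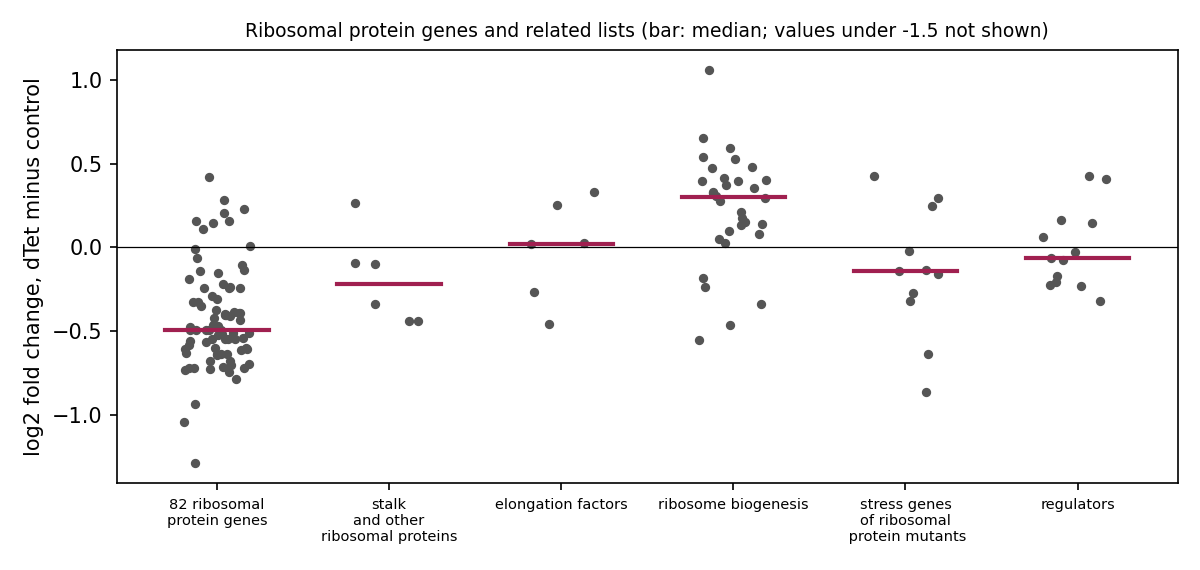
Log2 fold change of dTet over control for each tested gene of the 82 ribosomal protein genes and of 5 related lists, with the median of each as a bar; RpS5b (-2.33) and eEF1alpha2 (-4.55) fall outside the axis. The medians run from -0.49 for the ribosomal protein genes to 0.30 for ribosome biogenesis.

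Genes known to respond when a ribosomal protein is lacking were also listed. Of 11 tested, 1 fell and 0 rose by edgeR (2 and 3 at an unadjusted p under 0.05, and 2 and 1 by DESeq2). The median log2 fold change was -0.14. Without control 1, 3 were called higher and 3 lower, with a median of -0.21. The gene that fell with all libraries was Irbp18, the dimer partner of Xrp1, at 23.6, 29.6 and 27.9 CPM in controls and at 18.8, 16.7 and 16.8 CPM in dTet, a log2 fold change of -0.63 (SE 0.15, edgeR adjusted p = 0.029). Xrp1 itself, the transcription factor that slows the growth of Minute cells, had a log2 fold change of -0.14 and did not pass (edgeR adjusted p = 0.547), although without control 1 it was called lower, at -0.29 (edgeR adjusted p = 0.0273). The oxidative stress factor cnc stood at 129 to 172 CPM in controls and at 185 to 211 CPM in dTet (edgeR adjusted p = 0.0658). The cell competition gene fwe stood at 190 to 208 CPM and 152 to 173 CPM (edgeR adjusted p = 0.0805). Both were called without control 1, cnc higher at 0.53 (edgeR adjusted p = 0.00212) and fwe lower at -0.32 (edgeR adjusted p = 0.0225).

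Among 13 regulators of ribosomal protein genes and their translation, 2 rose and 0 fell by edgeR (2 and 2 at an unadjusted p under 0.05, and 2 and 0 by DESeq2). The median log2 fold change was -0.06. Without control 1, 2 were called higher and 2 lower, with a median of -0.05. Tor, the growth kinase, stood at 148, 126 and 147 CPM in controls and at 177, 188 and 194 CPM in dTet, a log2 fold change of 0.41 (SE 0.11, edgeR adjusted p = 0.0414). S6k, the kinase below it that phosphorylates RpS6, stood at 59, 53.8 and 61.8 CPM in controls and at 70.7, 82.8 and 80.5 CPM in dTet, a log2 fold change of 0.42 (SE 0.11, edgeR adjusted p = 0.0425). In both, all dTet libraries lay above all controls, as in 15.1% of all tested genes. Tor and S6k have exon lengths of 7987 and 4885 bases. Other genes of 3000 bases or more, at 10 CPM or more in controls, had a median log2 fold change of 0.11. The part of length in the values of Tor and S6k was not tested. REPTOR, a factor held back by Tor signalling, stood at 36.7 to 37.7 CPM in controls and at 29.2 to 31.2 CPM in dTet (edgeR adjusted p = 0.117), and Myc did not pass (log2 fold change 0.15, edgeR adjusted p = 0.388). REPTOR was called lower without control 1, at -0.35 (edgeR adjusted p = 0.049).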

How the data were processed

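The deposited values are whole counts of read pairs for each gene symbol; per the file headers, they come from featureCounts 2.0.6 run over the exons of FlyBase 6.45 with both mates mapped and strand setting 2. The submitters' processing notes list FastQC 0.12.1, HISAT2 2.2.0 and the dm6 build. Libraries were made with a stranded total RNA kit, per the labels. Read pairs carry no molecular identifiers, so floors (3 counts) cover counting error only.

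The table's 17609 genes were tested with edgeR 4.0.16 in R 4.3.3: filterByExpr by group, which left 9417 genes, TMM scaling, and the quasi-likelihood test of 3 dTet against 3 control libraries without covariates, with Benjamini-Hochberg adjustment and a threshold of 0.05. The SE of a log2 fold change was taken as its absolute value over the square root of the test's F statistic. The 95% interval used this SE and a t quantile, so both are approximate. TPM used the exon length in the table. Transcript parts came from the Ensembl 115 annotation, in dm6 coordinates, which matched 86 of the 88 members by symbol. The alternatives used DESeq2 1.42.0 and limma 3.58.1, and permutation tests scipy 1.17.1. The fit was tested on simulated counts. Promoter motifs were not analysed here, and 1 gene that the naming rule picks is not reported by name. Same-numbered samples of the 2 groups are not said to be paired.

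The members and gene lists were chosen with earlier results of these data known. Members were named if past the threshold, in a paralog set, among the 6 highest or lowest in TPM, the 4 widest in control spread, or the 4 largest rises or falls. RpL3, RpL5, RpL8, RpL11, RpL15, RpL22, RpL23A, RpL38, RpL39, RpS3A and RpS6 were named after their values were seen, apart from those in paralog sets, as were eEF1alpha1, Xrp1 and Myc.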

Additional observations from a re-analysis of the deposited data

How the results depend on the processing

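The count of ribosomal protein genes lower in dTet (1, RpS5b) was 1 under DESeq2's size factors, upper quartile scaling, TMM computed without the members, and a filter of 1 CPM in 3 libraries. In these fits 7.65% to 8.23% of all tested genes were lower. The count was 16 with no filter on low counts and 27 with DESeq2 (15 genes in both lists), 2 with small RNA genes removed (RpS5b and RpS27), and 0 with limma-voom (23 at an unadjusted p under 0.05) and at an adjusted p of 0.01. Of all tested genes 7.28%, 11.4%, 7.97%, 7.66% and 4.23% were lower in these settings, in that order. With the replicate number as a block the count was 0 (19 at an unadjusted p under 0.05), with 902 genes called in all and 6.62% of all tested genes lower. RpS5b then had an edgeR adjusted p of 0.0751. Same-numbered samples had correlations of deviations of 0.03, 0.02 and -0.10. With 3 libraries per group, these values cannot decide whether the numbers pair the samples. Leaving out each library gave 0 to 69 lower and 0 to 1 higher, with 69 and 1 without control 1 and 0 without any other. Of all tested genes 18.8% were lower and 14.5% higher without control 1. With another library left out, 4.37% to 5.93% were lower and 1.35% to 2.02% higher. All genes called numbered 1733 with DESeq2, 512 at an adjusted p of 0.01 and 560 to 3231 with a library left out. The members' median stayed below 0, from -0.74 to -0.31, in each of these. Alternatives added after the data were seen gave 5 higher, 0 lower and a median of 0.17 without controls 2 and 3, and 4 higher and 2 lower with the length offset. The share of pairs taken by members differed by -4.30 percentage points (dTet minus control; -7.02 to -2.60 with a library left out), and their median coefficient of variation over controls was 7.24% without control 1 and 44.5% without control 3. With a library left out, the log2 fold change of RpL22 ran from -0.0054 to 0.20, of RpL34a from -0.40 to 0.024 and of RpL22-like from -0.19 to 0.50, so their direction was not fixed. The cause of these changes was not tested. Over the named genes called with all 6 libraries, related lists included, 43 combinations of gene and alternative lost the call. RpS5b gave part of these. Tor, S6k, pit, CG4038 and Irbp18 each missed an edgeR adjusted p of 0.01. Low counts limit RpS5b, RpS19b and RpL22-like, and 3 against 3 libraries limit paralog shares.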
